A study of Homo sapiens with 24 samples.

Results

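Described here are 9 genes of 60675, the ligands, receptors and targets of transforming growth factor beta (TGF-beta) signalling, taken as a list of symbols and mapped to the Ensembl identifiers of the count tables. They comprise the ligand genes TGFB1, TGFB2 and INHBA, the latency protein gene LTBP1, the receptor genes TGFBR1 and TGFBR2, the signal transducer SMAD3, and the feedback inhibitors SMAD7 and SKIL, which are also known targets of the pathway. All 9 passed the filter on low counts in both lines. TGF-beta is a secreted signal that cells store in a latent form outside the cell, bound to a latent TGF-beta binding protein. Once freed, the ligand binds the type II receptor TGFBR2, which switches on the type I receptor TGFBR1, and TGFBR1 phosphorylates SMAD transcription factors that move to the nucleus. In breast cancer the pathway is known for restraining growth of early tumours and for promoting invasion of advanced ones.

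RNA sequencing had been done on 24 libraries of MDA-MB-231 and MDA-MB-436, established human cell lines of triple-negative breast cancer, grown in DMEM with fetal bovine serum. Each line had 3 libraries in each of 4 groups: cells given a short hairpin RNA (shRNA) labelled as directed at MDM2, cells given a non-targeting shRNA, cells given the MDM2 PROTAC YX-2-30, and cells given its solvent DMSO. MDM2 is a ubiquitin ligase, and a PROTAC is a small molecule that brings its target protein to a ubiquitin ligase for degradation. The labels give neither the PROTAC's dose and duration nor the hairpin sequences, and leave unsaid if each group's 3 libraries were grown apart, so p-values measure only the spread between these libraries.

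Total counts ran from 33.4 to 174.7 M per library. Levels below are CPM, read counts scaled to library size, on one scale for all 24 libraries and given as mean ± SD over 3 libraries, and log2 changes are given ± standard error from the edgeR quasi-likelihood test with p-values adjusted over all genes of a line (threshold 0.05). MDM2 transcript was not called lower in the libraries labelled MDM2 shRNA, with 26.5 ± 3.83 CPM against 18.1 ± 5.93 CPM with the non-targeting shRNA in MDA-MB-231 (log2 change 0.55 ± 0.24, adjusted p = 0.137) and 23.2 ± 7.38 against 25.2 ± 4.29 CPM in MDA-MB-436 (-0.11 ± 0.22, adjusted p = 0.78). The groups are therefore named by their labels, and MDM2 protein was not measured. Both lines carried transcripts of the epithelial keratins KRT8 (331 CPM in MDA-MB-231 and 398 CPM in MDA-MB-436) and KRT18 (226 and 326 CPM) and of the mesenchymal filament gene VIM (3920 and 802 CPM), with CDH1 at 0.176 and 0.215 CPM.

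The promoters of the genes that the results turn on are shown first. LTBP1, SMAD3 and TGFBR2 fell in every comparison of a treatment with its own control. TGFB2 fell with them in MDA-MB-436 and rose in MDA-MB-231. INHBA rose in every comparison, though its change with the PROTAC in MDA-MB-231 was not called. Each is 300 bases, from 250 before to 50 after a RefSeq transcript start on GRCh38.p14, written 5′ to 3′ on the gene's strand; RefSeq starts can lie inside or outside the GENCODE gene bounds given further on. Capitals mark matches, on either strand, to 5 motifs: the SMAD box CAGAC, the cyclic AMP response element TGACGTCA, the AP-1 site TGANTCA, the TATA box TATAAA and the E-box CACGTG.
LTBP1, chr2:32946703-32947002, plus strand: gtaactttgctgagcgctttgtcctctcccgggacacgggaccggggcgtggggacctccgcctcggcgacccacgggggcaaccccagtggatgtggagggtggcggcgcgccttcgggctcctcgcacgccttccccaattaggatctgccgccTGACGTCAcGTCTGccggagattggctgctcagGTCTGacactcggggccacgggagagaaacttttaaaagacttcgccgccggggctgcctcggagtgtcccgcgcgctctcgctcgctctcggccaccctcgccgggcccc
SMAD3, chr15:67065352-67065651, plus strand: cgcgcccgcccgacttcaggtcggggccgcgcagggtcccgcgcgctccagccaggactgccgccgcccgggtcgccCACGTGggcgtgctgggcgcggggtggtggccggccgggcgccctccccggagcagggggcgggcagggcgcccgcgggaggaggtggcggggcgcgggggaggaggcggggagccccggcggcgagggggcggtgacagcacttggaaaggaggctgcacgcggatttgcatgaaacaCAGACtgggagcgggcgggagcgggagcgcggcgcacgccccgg
TGFBR2, chr3:30606351-30606650, plus strand: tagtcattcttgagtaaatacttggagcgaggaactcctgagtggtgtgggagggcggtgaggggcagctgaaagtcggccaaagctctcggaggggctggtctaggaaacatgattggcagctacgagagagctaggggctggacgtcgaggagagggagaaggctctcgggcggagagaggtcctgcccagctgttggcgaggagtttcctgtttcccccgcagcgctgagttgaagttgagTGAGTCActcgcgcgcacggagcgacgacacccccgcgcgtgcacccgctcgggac
TGFB2, chr1:218345086-218345385, plus strand: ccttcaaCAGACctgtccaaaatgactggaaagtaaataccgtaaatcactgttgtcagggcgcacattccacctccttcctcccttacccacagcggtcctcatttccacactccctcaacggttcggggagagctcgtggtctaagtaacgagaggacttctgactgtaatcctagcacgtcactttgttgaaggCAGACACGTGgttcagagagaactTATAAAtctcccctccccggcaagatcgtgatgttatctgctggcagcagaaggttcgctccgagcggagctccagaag
INHBA, chr7:41703041-41703340, minus strand: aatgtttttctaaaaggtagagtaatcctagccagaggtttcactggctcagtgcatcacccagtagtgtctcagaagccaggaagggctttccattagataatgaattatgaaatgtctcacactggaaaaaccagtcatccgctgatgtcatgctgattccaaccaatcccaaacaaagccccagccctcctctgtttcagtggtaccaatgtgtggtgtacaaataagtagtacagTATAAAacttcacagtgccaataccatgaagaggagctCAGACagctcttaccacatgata

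The LTBP1 window held the cyclic AMP response element, which 1.85% of 35116 RefSeq promoters hold, followed by 2 SMAD boxes on the reverse strand. Across all promoters the SMAD box stood in 45.3%, and the LTBP1, SMAD3, TGFB2 and INHBA windows were among them. The SMAD3 window was the richest in G and C (80.3%) and also held an E-box, a motif present in 7.26% of promoters. An AP-1 site, present in 7.71% of promoters, reached the start of TGFBR2, the 1 window of the 5 with no SMAD box. TATA boxes, found in 11.5% of promoters, stood in the TGFB2 and INHBA windows, and the E-box of TGFB2 shared a base with one of its 2 SMAD boxes. These matches are descriptions of the sequence, and no binding was measured.

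Across treatments the clearest pattern was a lower level of the latency protein, the type II receptor and SMAD3. LTBP1, TGFBR2 and SMAD3 fell in all 4 comparisons of a treatment with its own control, as 637 of the 19009 genes tested in both lines (3.35%) did in all. TGFB2 rose in MDA-MB-231 and fell in MDA-MB-436 with both treatments. With the counts of the overlapping gene TGFB2-OT1 added, the 4 changes kept their sign, at 0.32 and 0.35 in MDA-MB-231 and -0.20 and -0.43 in MDA-MB-436, and the last was still called. INHBA rose in MDA-MB-436 with both treatments and in MDA-MB-231 in the libraries labelled MDM2 shRNA.

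Among the 9 genes, 3 were called higher and 3 lower in the MDA-MB-231 libraries labelled MDM2 shRNA, where 22.7% of all 20675 genes tested were called (11.1% higher and 11.6% lower). With the PROTAC in the same line 1 was called higher and 3 lower, against 22.6% of all genes (11.1% higher and 11.5% lower). In MDA-MB-436, 1 was higher and 5 lower in the libraries labelled MDM2 shRNA (30.4% of 22663 genes called, 16% higher and 14.4% lower), and 1 was higher and 4 lower with the PROTAC (32.4% called, 17.3% higher and 15.1% lower). The libraries of treatment and control did not overlap for 7, 6, 6 and 5 of the 9 genes in these 4 comparisons, beside 39%, 39.1%, 51.3% and 41.6% of all genes tested. The median log2 change of the 9 was -0.42, -0.29, -0.48 and -0.35 in these 4 comparisons, beside medians of 0.014, -0.0060, 0.040 and 0.043 over all genes tested. The 9 genes were chosen with earlier results of these data known, so the counts describe them and are no test of the pathway.

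**Figure D1:**
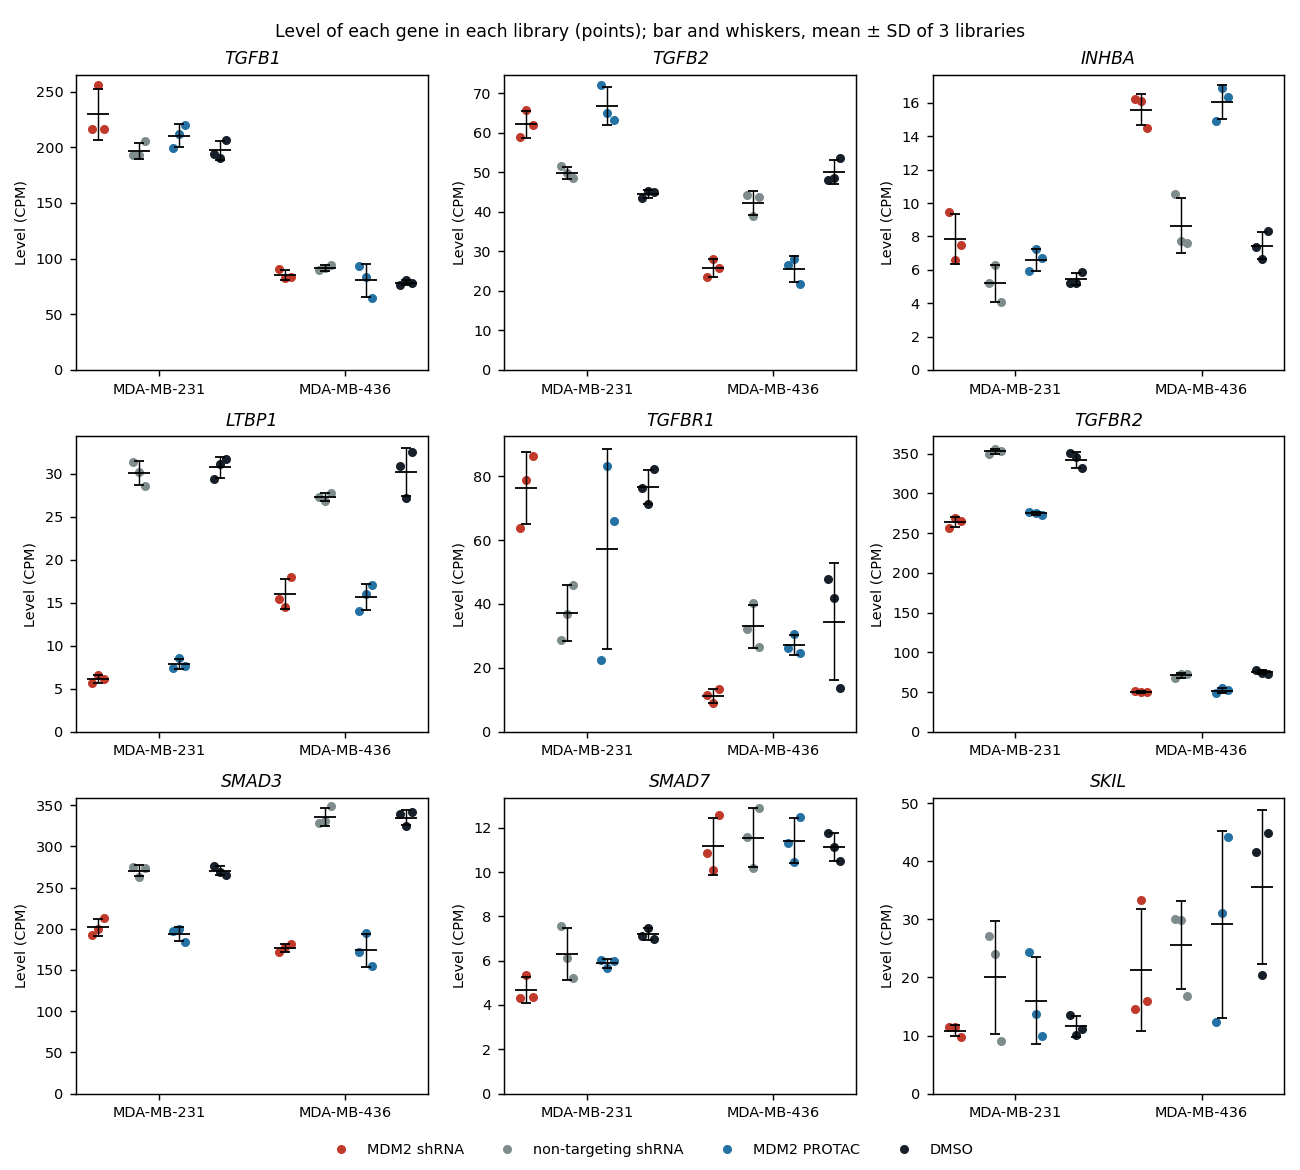
Level of each gene in CPM (vertical axis, from 0) in each of the 24 libraries, with the 4 groups of MDA-MB-231 on the left and of MDA-MB-436 on the right of each panel; points are libraries, bars and whiskers the mean ± SD of 3. LTBP1 sits between 5.72 and 8.55 CPM in the treated MDA-MB-231 libraries, below all control libraries, while TGFBR1 and SKIL scatter widely within groups.

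LTBP1 (ENSG00000049323, chromosome 2, 32946972 to 33399509, GRCh38) encodes the binding protein that anchors latent TGF-beta to the matrix, and it changed most among the 9 genes in MDA-MB-231. In that line its level was 5.72, 6.58 and 6.18 CPM in the libraries labelled MDM2 shRNA and 31.4, 30.2 and 28.6 CPM with the non-targeting shRNA. With the PROTAC it was 7.43, 8.55 and 7.70 CPM, against 29.4, 31.1 and 31.8 CPM with DMSO. No treated library reached the level of any control library, and the 2 control groups overlapped. The log2 changes were -2.29 ± 0.086 (adjusted p = 4.25e-08) and -1.96 ± 0.084 (adjusted p = 1.14e-07), which are folds of 0.205 and 0.256. In bulk RNA, fewer cells carrying a transcript and less of it per cell cannot be told apart.

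In MDA-MB-436 the controls had LTBP1 levels close to those of MDA-MB-231, and the fall was smaller. The libraries labelled MDM2 shRNA had 15.5, 14.5 and 17.9 CPM, against 27.3, 26.8 and 27.8 CPM with the non-targeting shRNA. The PROTAC libraries had 14.1, 15.99 and 17.03 CPM, against 30.9, 27.1 and 32.6 CPM with DMSO. Again treated and control libraries did not overlap, with log2 changes of -0.76 ± 0.12 (adjusted p = 5.11e-04) and -0.95 ± 0.12 (adjusted p = 9.88e-05). The test of the difference between lines put the effect in MDA-MB-436 above that in MDA-MB-231 by 1.51 on the log2 scale in the libraries labelled MDM2 shRNA (95% interval 1.22 to 1.80, edgeR adjusted p = 1.79e-07) and by 1.02 with the PROTAC (95% interval 0.73 to 1.31, edgeR adjusted p = 1.82e-05).

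LTBP1 spans 452.5 kb of the genome, far more than the other 8 genes, which span 32.2 to 131 kb. Long genes as a class had negative medians in MDA-MB-231: for protein-coding genes of 300 kb and over the median log2 change was -0.74 in the libraries labelled MDM2 shRNA and -0.75 in the PROTAC libraries, and 53.5% and 51.7% of the 574 tested were called lower. For genes under 10 kb those medians were 0.067 and 0.023. LTBP1 nevertheless lay in the lower part of its class, with 14.5% and 17.6% of the 574 genes showing a lower log2 change. In MDA-MB-436 the class of 657 long genes had medians of 0.024 and -0.14, with 21.5% and 27.5% called lower, and 13.4% and 13.9% of them changed to a lower value than LTBP1. The part of gene length in the LTBP1 result was not tested.

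**Figure D2:**
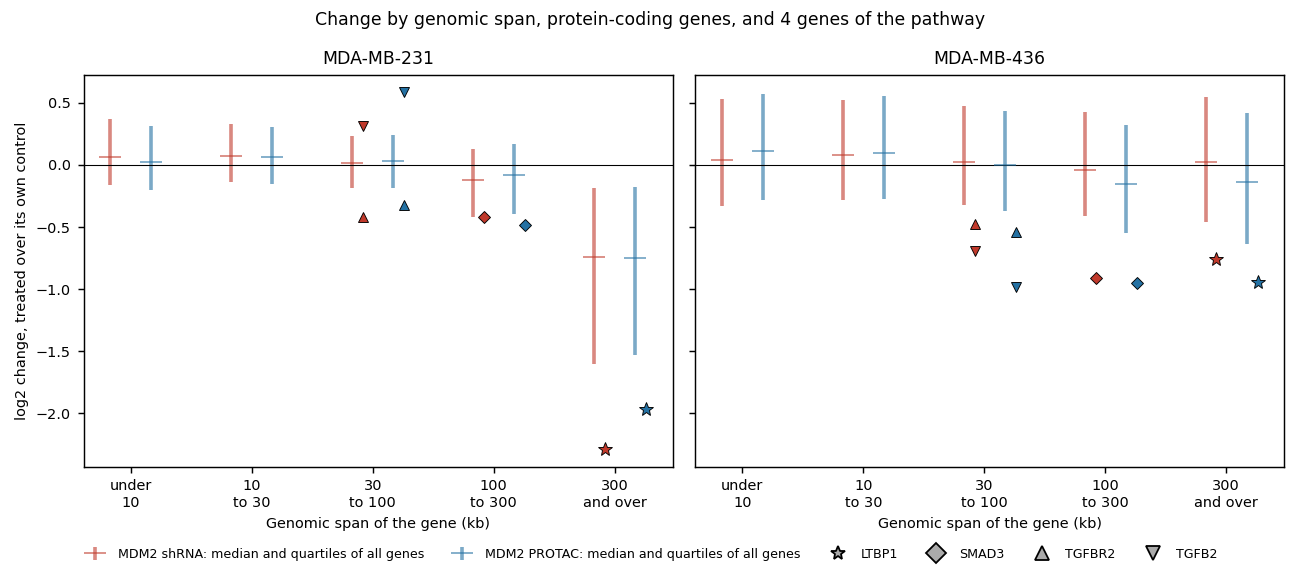
Log2 change over the gene's own control (vertical axis) for protein-coding genes in 5 bins of genomic span in kilobases (horizontal axis), red for the libraries labelled MDM2 shRNA and blue for the PROTAC; bars give the median and quartiles of each bin, symbols the values of LTBP1, SMAD3, TGFBR2 and TGFB2. In MDA-MB-231 (left) the longest genes have medians of -0.74 and -0.75 with LTBP1 below their lower quartile, and in MDA-MB-436 (right) medians of 0.024 and -0.14.

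SMAD3 (ENSG00000166949, chromosome 15, 67063763 to 67195195), the transcription factor that the activated receptor phosphorylates, fell with both treatments in both lines. In MDA-MB-231 it measured 193, 199 and 213 CPM in the libraries labelled MDM2 shRNA, against 275, 263 and 273 CPM with the non-targeting shRNA. It measured 197, 199 and 184 CPM with the PROTAC and 277, 269 and 266 CPM with DMSO. The 2 treated groups overlapped each other and stayed below both controls, with log2 changes of -0.42 ± 0.047 (adjusted p = 8.34e-05) and -0.49 ± 0.047 (adjusted p = 3.09e-05).

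The fall of SMAD3 was larger in MDA-MB-436, where its control level was the higher of the lines. There it measured 172, 178 and 182 CPM in the libraries labelled MDM2 shRNA, against 328, 331 and 349 CPM with the non-targeting shRNA. The PROTAC libraries had 171, 195 and 155 CPM and the DMSO libraries 339, 325 and 341 CPM. Log2 changes were -0.91 ± 0.063 (adjusted p = 1.47e-06) and -0.95 ± 0.063 (adjusted p = 9.78e-07), so that the treated levels of MDA-MB-436 ended below those of MDA-MB-231 on average. The effect in MDA-MB-436 minus that in MDA-MB-231 was -0.50 in the libraries labelled MDM2 shRNA (95% interval -0.69 to -0.31, edgeR adjusted p = 4.11e-04) and -0.46 with the PROTAC (95% interval -0.65 to -0.27, edgeR adjusted p = 7.84e-04).

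TGFBR2 (ENSG00000163513, chromosome 3, 30606502 to 30694142), the receptor that binds the ligand, had the smallest standard errors of the 9 genes in MDA-MB-231. Its level there was 257, 269 and 265 CPM in the libraries labelled MDM2 shRNA and 349.6, 356 and 353 CPM with the non-targeting shRNA. With the PROTAC it was 277, 275 and 273 CPM, against 351, 345 and 331 CPM with DMSO. The falls were modest but larger than the spread between libraries, at -0.42 ± 0.034 (adjusted p = 7.21e-06) and -0.32 ± 0.034 (adjusted p = 5.15e-05) on the log2 scale. MDA-MB-436 had less TGFBR2 in every group, with 51.9, 49.7 and 49.97 CPM in the libraries labelled MDM2 shRNA, against 67.6, 72.2 and 73.3 CPM with the non-targeting shRNA. Its PROTAC libraries had 48.6, 55.03 and 52.2 CPM and its DMSO libraries 78.3, 74.1 and 73.3 CPM. Treated and control libraries did not overlap, and the log2 changes were -0.48 ± 0.068 (adjusted p = 2.61e-04) and -0.54 ± 0.068 (adjusted p = 9.97e-05).

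TGFBR1 (ENSG00000106799, chromosome 9, 99104038 to 99154192), the receptor kinase that acts on SMAD3, varied widely between libraries of a group. In MDA-MB-231 it measured 22.4, 83.1 and 66.1 CPM with the PROTAC, where replicate 1 was far below the others, and 76.4, 71.4 and 82.2 CPM with DMSO (log2 change -0.42 ± 0.36, adjusted p = 0.473). The libraries labelled MDM2 shRNA had 63.8, 78.8 and 86.2 CPM, all above the non-targeting libraries at 28.7, 36.7 and 46.1 CPM, yet the log2 change of 1.04 ± 0.37 missed the threshold (adjusted p = 0.0658) and passed it under 4 of 17 alternatives, DESeq2 among them (adjusted p = 0.0484, range over the alternatives 0.0112 to 0.203). The 2 control groups of that line did not overlap in TGFBR1, at 37.2 ± 8.71 CPM with the non-targeting shRNA and 76.7 ± 5.38 CPM with DMSO.

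One of its 4 changes was called. In MDA-MB-436 TGFBR1 fell to 11.6, 9.02 and 13.3 CPM in the libraries labelled MDM2 shRNA, against 32.1, 40.2 and 26.6 CPM with the non-targeting shRNA (log2 change -1.53 ± 0.37, adjusted p = 0.00774). With the PROTAC it had 26.3, 30.7 and 24.5 CPM, against 47.8, 41.9 and 13.8 CPM with DMSO, and the change of -0.35 ± 0.36 was not called (adjusted p = 0.504). That value rests on the low DMSO replicate 3: without it the log2 change was -0.72 and was called (adjusted p = 0.0194, range over the alternatives 0.0194 to 0.967).

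TGFB2 (ENSG00000092969, chromosome 1, 218346235 to 218444619), one of the TGF-beta ligands, was called in opposite directions in the lines. In MDA-MB-231 it rose to 58.98, 65.7 and 61.9 CPM in the libraries labelled MDM2 shRNA, against 51.6, 49.9 and 48.5 CPM with the non-targeting shRNA (log2 change 0.32 ± 0.061, adjusted p = 0.00354). With the PROTAC it rose to 72.3, 65.1 and 63.3 CPM, against 43.4, 45.3 and 44.9 CPM with DMSO (0.58 ± 0.062, adjusted p = 5.25e-05). All treated libraries of that line lay above all of its control libraries.

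In MDA-MB-436 TGFB2 fell to 23.4, 28.04 and 25.9 CPM in the libraries labelled MDM2 shRNA, against 44.2, 38.9 and 43.7 CPM with the non-targeting shRNA (log2 change -0.70 ± 0.10, adjusted p = 2.71e-04). The PROTAC libraries had 26.6, 28.1 and 21.8 CPM and the DMSO libraries 48.1, 48.7 and 53.7 CPM (-0.98 ± 0.10, adjusted p = 2.14e-05). The effect in MDA-MB-436 minus that in MDA-MB-231 was -1.03 in the libraries labelled MDM2 shRNA (95% interval -1.29 to -0.76, edgeR adjusted p = 6.55e-06) and -1.56 with the PROTAC (95% interval -1.83 to -1.29, edgeR adjusted p = 3.41e-08).

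TGFB2-OT1 is a noncoding gene on the same strand that shares 1371 of the 5151 exonic bases of TGFB2 (26.6%). TGFB2-OT1 had 716 to 1834 counts in 7 libraries and 17 to 32 counts in the other 17. The 7 were all 3 PROTAC libraries, replicates 1 and 3 of the libraries labelled MDM2 shRNA and DMSO replicate 1 of MDA-MB-436, and DMSO replicate 3 of MDA-MB-231. In the 2 DMSO libraries with high TGFB2-OT1, TGFB2 itself measured 44.9 CPM, beside 43.4 and 45.3 CPM in the other MDA-MB-231 DMSO libraries, and 48.1 CPM, beside 48.7 and 53.7 CPM in those of MDA-MB-436. In the MDA-MB-436 libraries labelled MDM2 shRNA, TGFB2 measured 23.4 and 25.9 CPM in replicates 1 and 3, where TGFB2-OT1 was high. It measured 28.04 CPM in replicate 2, where TGFB2-OT1 was at 0.343 CPM. How reads of the shared bases were assigned was not tested. With the counts of both genes added together, a setting chosen after the data were seen, the adjusted p was the highest of any alternative in the 4 treatment comparisons and in both differences between lines. The log2 change in MDA-MB-436 shrank to -0.20 in the libraries labelled MDM2 shRNA and was not called (adjusted p = 0.338, where the other 16 alternatives were called), and it was -0.43 and called with the PROTAC (adjusted p = 0.0387). In MDA-MB-231 the summed changes were 0.32 (adjusted p = 0.146) and 0.35 (adjusted p = 0.109), neither of them called, beside 0.32 and 0.58 for TGFB2 alone. The summed difference between lines was -0.54 in the libraries labelled MDM2 shRNA and was not called (edgeR adjusted p = 0.0882), and -0.78 and called with the PROTAC (edgeR adjusted p = 0.0113).

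INHBA (ENSG00000122641, chromosome 7, 41667168 to 41705834) encodes the subunit of activin A, a ligand of the same family that signals through other receptors to SMAD3. In MDA-MB-436 it rose to 16.2, 16.1 and 14.5 CPM in the libraries labelled MDM2 shRNA, against 10.5, 7.73 and 7.63 CPM with the non-targeting shRNA (log2 change 0.87 ± 0.15, adjusted p = 9.00e-04). It rose to 14.9, 16.9 and 16.3 CPM with the PROTAC, against 7.37, 6.68 and 8.31 CPM with DMSO (1.10 ± 0.15, adjusted p = 1.62e-04). All 6 treated libraries lay above the 6 controls.

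In the control libraries of MDA-MB-231 INHBA was the least abundant of the 9 genes per kilobase of exon. Its level in that line was 9.47, 6.58 and 7.47 CPM in the libraries labelled MDM2 shRNA and 5.23, 6.29 and 4.06 CPM with the non-targeting shRNA (0.59 ± 0.18, adjusted p = 0.0319). That call was kept in 10 of 17 alternatives and lost without any one of replicates 1 and 3 of the libraries labelled MDM2 shRNA and replicates 1 and 3 of the non-targeting group, with log2 changes of 0.43, 0.63, 0.59 and 0.43 and adjusted p = 0.130, 0.0595, 0.0890 and 0.119 (range over the alternatives 0.0098 to 0.130). With the PROTAC INHBA measured 5.92, 7.23 and 6.70 CPM, against 5.22, 5.24 and 5.89 CPM with DMSO, and the change of 0.28 ± 0.18 was not called (adjusted p = 0.311). The PROTAC effect was larger in MDA-MB-436 than in MDA-MB-231 by 0.83 (95% interval 0.34 to 1.32, edgeR adjusted p = 0.0136), while for the libraries labelled MDM2 shRNA the difference of 0.26 was not called (95% interval -0.23 to 0.75).

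TGFB1 (ENSG00000105329, chromosome 19, 41301587 to 41353911) had the higher level per kilobase of exon of the 2 TGF-beta ligand genes and was called in 1 of the 4 comparisons. In MDA-MB-231 it had 217, 256 and 216 CPM in the libraries labelled MDM2 shRNA, against 193, 193 and 205 CPM with the non-targeting shRNA, a called rise of 0.22 ± 0.069 (adjusted p = 0.0408). The call was kept in 10 of 17 alternatives and lost without replicate 2 of the libraries labelled MDM2 shRNA, which was the highest at 256 CPM (log2 change 0.13, adjusted p = 0.120, range over the alternatives 0.0053 to 0.148). It was also lost without non-targeting replicate 1, 2 or 3, with log2 changes of 0.19, 0.19 and 0.24 and adjusted p = 0.143, 0.141 and 0.0654. The other changes of TGFB1 were 0.092 ± 0.069 with the PROTAC in MDA-MB-231, -0.088 ± 0.096 in the MDA-MB-436 libraries labelled MDM2 shRNA and 0.031 ± 0.096 in the PROTAC libraries of that line, and none was called. Their 95% intervals of -0.059 to 0.24, -0.30 to 0.12 and -0.18 to 0.24 all include 0. The sign in the MDA-MB-436 libraries labelled MDM2 shRNA turned positive without scaling between libraries (0.091).

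SMAD7 (ENSG00000101665, chromosome 18, 48919853 to 48952052) encodes the inhibitory SMAD that blocks the type I receptor. In MDA-MB-231 it measured 4.33, 5.37 and 4.38 CPM where the label was MDM2 shRNA and 7.54, 6.12 and 5.20 CPM with the non-targeting shRNA, which overlapped. It measured 6.02, 5.65 and 5.999 CPM with the PROTAC and 7.13, 7.49 and 6.996 CPM with DMSO, which did not overlap. The log2 changes of -0.42 ± 0.14 (adjusted p = 0.0503) and -0.29 ± 0.14 (adjusted p = 0.166) were not called. The first lay at the threshold and was called under 8 of 17 alternatives, DESeq2 (adjusted p = 0.0228) and limma voom (0.0458) among them (range over the alternatives 0.0171 to 0.187). Leaving out replicate 2 of the libraries labelled MDM2 shRNA or non-targeting replicate 3 also brought it past the threshold, at -0.53 (adjusted p = 0.0324) and -0.56 (adjusted p = 0.0171). In MDA-MB-436 SMAD7 stayed between 10.1 and 12.9 CPM in all 12 libraries, with log2 changes of -0.031 (95% interval -0.32 to 0.26) and 0.035 (95% interval -0.26 to 0.33), and both signs turned under other settings.

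SKIL (ENSG00000136603, chromosome 3, 170357678 to 170396835), a corepressor that holds SMAD complexes inactive, was the other gene with widely scattered libraries. Its level was 11.4, 11.4 and 9.69 CPM in the MDA-MB-231 libraries labelled MDM2 shRNA, against 27.1, 24.1 and 8.99 CPM with the non-targeting shRNA. In MDA-MB-436 it was 12.3, 31.01 and 44.2 CPM with the PROTAC and 41.5, 20.4 and 44.8 CPM with DMSO, and these groups overlapped. None of its 4 changes was called, with log2 values of -0.89 ± 0.39, 0.46 ± 0.38, -0.25 ± 0.48 and -0.28 ± 0.48 for the libraries labelled MDM2 shRNA and the PROTAC in MDA-MB-231 and the same 2 in MDA-MB-436. Without the non-targeting replicate 3 of MDA-MB-231, which was at 8.99 CPM while the others were at 27.1 and 24.1 CPM, SKIL was called lower in the libraries labelled MDM2 shRNA (log2 change -1.25, adjusted p = 0.0163, range over the alternatives 0.0163 to 0.371).

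**Figure D3:**
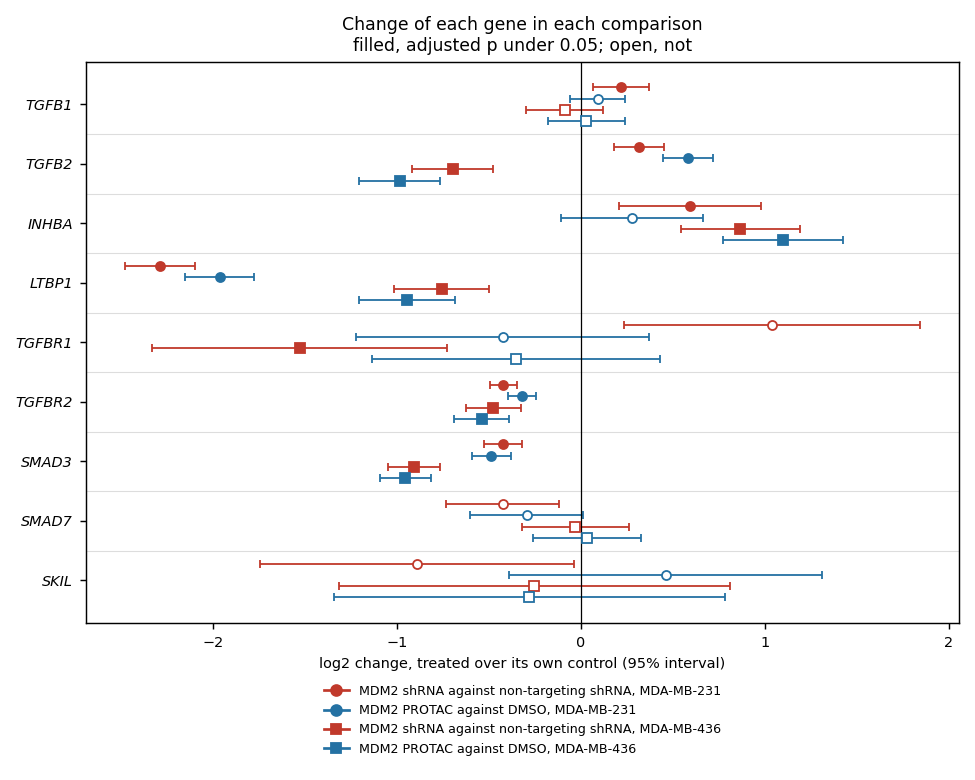
Log2 change of each gene over its own control with its 95% interval (horizontal axis), for 4 comparisons per gene: circles for MDA-MB-231, squares for MDA-MB-436, red for the libraries labelled MDM2 shRNA, blue for the PROTAC; filled symbols have an adjusted p under 0.05. LTBP1, TGFBR2 and SMAD3 have 4 filled symbols on the lower side, and TGFB2, plotted without the reads of TGFB2-OT1, has its circles and squares on opposite sides of 0.

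The hairpin and the degrader were compared next. The test of the PROTAC effect minus the effect in the libraries labelled MDM2 shRNA called none of the 9 in either line with edgeR, DESeq2 or limma voom, and 1 gene of all tested in each line by edgeR (0.00484% for MDA-MB-231 and 0.00441% for MDA-MB-436). At an unadjusted p under 0.05, 4 of the 9 differed in MDA-MB-231 (TGFB2, TGFBR1, LTBP1 and SKIL), as did 1 in MDA-MB-436 (TGFBR1), beside 977 of the 20675 and 1230 of the 22663 genes tested. The differences for SMAD3 were -0.064 in MDA-MB-231 (95% interval -0.21 to 0.084) and -0.048 in MDA-MB-436 (95% interval -0.24 to 0.15). For TGFBR2 they were 0.10 (95% interval -0.0034 to 0.21) and -0.063 (95% interval -0.27 to 0.15). For LTBP1 they were 0.32 (95% interval 0.068 to 0.58) and -0.19 (95% interval -0.56 to 0.18). The intervals for TGFBR1 were far wider, at -2.60 to -0.33 and 0.063 to 2.29, and a difference that is not called does not show that the treatments act alike.

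Responses differed between the lines for 4 of the 9 genes in the libraries labelled MDM2 shRNA and for 5 with the PROTAC, against 19.7% and 22.3% of the 24719 genes tested (9.94% and 11.8% with the higher effect in MDA-MB-436, and 9.77% and 10.5% with the lower). TGFB2, LTBP1 and SMAD3 were called in both. For the MDM2 shRNA label TGFBR1 was called too, with an effect in MDA-MB-436 minus that in MDA-MB-231 of -2.58 (95% interval -3.72 to -1.44, edgeR adjusted p = 0.00177). TGFBR2 was called with the PROTAC, at -0.22 (95% interval -0.36 to -0.072, edgeR adjusted p = 0.0283), and that call was kept in 11 of 21 alternatives (adjusted p from 0.0015 to 0.168). It was lost without any one of 7 libraries, with log2 differences from -0.22 to -0.17. These were the 3 PROTAC libraries and DMSO replicates 2 and 3 of MDA-MB-231, and PROTAC replicate 1 and DMSO replicate 1 of MDA-MB-436.

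**Figure D4:**
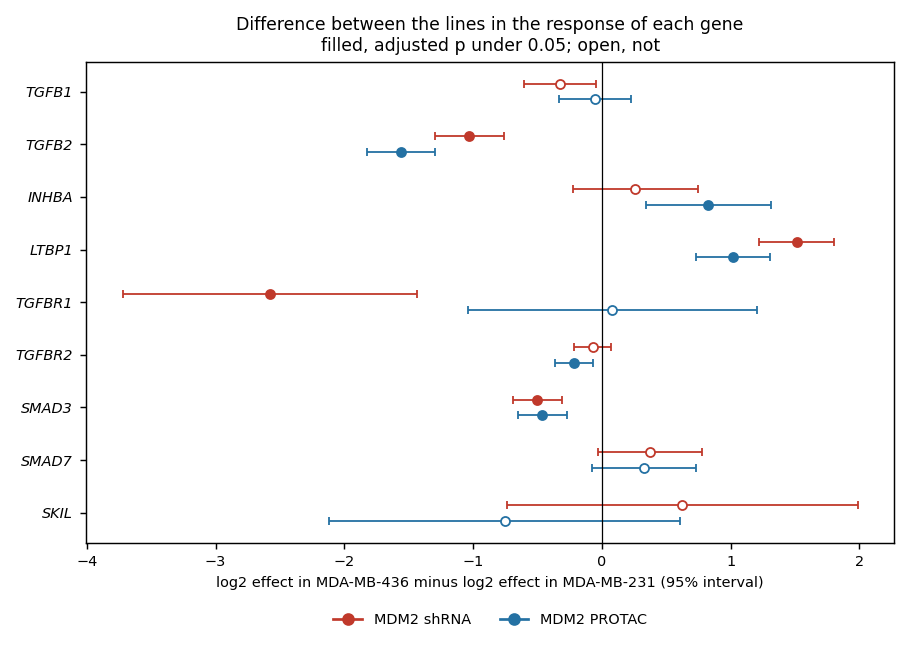
Log2 effect in MDA-MB-436 minus log2 effect in MDA-MB-231 with its 95% interval (horizontal axis) for each gene, red for the libraries labelled MDM2 shRNA and blue for the PROTAC; filled symbols have an adjusted p under 0.05. LTBP1 lies at 1.51 and 1.02 and TGFB2, without the reads of TGFB2-OT1, at -1.03 and -1.56.

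Control levels, in cells given the non-targeting shRNA or DMSO, also set the lines apart. Per kilobase of exon, the order in MDA-MB-231 controls was TGFBR2, TGFB1, SMAD3, TGFB2, TGFBR1, LTBP1, SKIL, SMAD7 and INHBA, with means from 73.9 to 0.641 CPM per kilobase. In MDA-MB-436 SMAD3 came first at 36.8 CPM per kilobase, followed by TGFB1 at 26.3 and TGFBR2 at 15.5, then TGFB2 at 8.97, and INHBA was again last at 0.969. SKIL and LTBP1 stood side by side there at 3.93 and 3.92 CPM per kilobase.

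Between the lines, 6 of the 9 genes differed in the non-targeting libraries and 7 in the DMSO libraries, where 56.8% of all genes did in each (31.1% higher and 25.7% lower in MDA-MB-436 for the non-targeting libraries, 29.6% and 27.2% for DMSO). The libraries of the lines did not overlap for 7 and 8 of the 9, beside 65.9% and 64.5% of all genes. TGFBR2 was lower in MDA-MB-436, at 71.04 ± 3.06 CPM against 353 ± 3.40 CPM in MDA-MB-231 with the non-targeting shRNA (log2 difference -2.31 ± 0.051, edgeR adjusted p = 4.43e-18) and 75.2 ± 2.67 against 343 ± 10.1 CPM with DMSO (-2.19 ± 0.051). TGFB1 was lower in MDA-MB-436 as well, with log2 differences of -1.10 and -1.33. SMAD3, SMAD7 and INHBA were higher in MDA-MB-436, by 0.31, 0.88 and 0.73 in the non-targeting libraries and by 0.31, 0.63 and 0.45 in the DMSO libraries. TGFB2 was called lower in MDA-MB-436 in the non-targeting libraries alone (-0.24 ± 0.089), a call kept in 11 of 15 alternatives. It was lost with TGFB2-OT1 added (-0.24, adjusted p = 0.186, the highest of the alternatives), and without non-targeting replicate 1 of MDA-MB-231 (-0.25, adjusted p = 0.0524) or replicate 2 of MDA-MB-436 (-0.21, adjusted p = 0.0816). In the DMSO libraries alone TGFBR1 was called lower (-1.15 ± 0.38) and SKIL higher (1.62 ± 0.47). The TGFBR1 call was lost without MDA-MB-436 DMSO replicate 3 (-0.80, adjusted p = 0.0652, range over the alternatives 0.0049 to 0.173), and the adjusted p of SKIL ranged from 6.95e-04 to 0.141. The upper end of both ranges came from the replicate block, whose line difference refers to replicate 1 of each line. The INHBA difference in the DMSO libraries was called in 10 of 15 alternatives and lost without DMSO replicate 1 or 2 of MDA-MB-231 or replicate 3 of MDA-MB-436 (0.40, 0.40 and 0.34, with adjusted p = 0.0917, 0.0914 and 0.136). LTBP1 was called in neither, with 95% intervals of -0.34 to 0.065 and -0.23 to 0.18.

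Ordered over the 8 groups, LTBP1 was highest in the 4 control groups, of which MDA-MB-231 DMSO, MDA-MB-436 DMSO and MDA-MB-231 non-targeting overlapped as neighbours. Both treated groups of MDA-MB-436 followed and overlapped each other at 15.98 ± 1.76 CPM in the libraries labelled MDM2 shRNA and 15.7 ± 1.49 CPM with the PROTAC. Then came the MDA-MB-231 PROTAC group at 7.89 ± 0.584 CPM and, with no overlap, the MDA-MB-231 libraries labelled MDM2 shRNA at 6.16 ± 0.428 CPM. SMAD3 levels formed 4 overlapping pairs of groups: the MDA-MB-436 controls, the MDA-MB-231 controls, the treated MDA-MB-231 groups and the treated MDA-MB-436 groups. INHBA had the treated MDA-MB-436 groups on top at 16.04 ± 1.01 and 15.6 ± 0.952 CPM, and its next 4 groups each overlapped their neighbour.

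The genes whose levels followed each of the 9 most closely were found by Pearson's r of log2 CPM over the 24 libraries, after subtraction of each line's mean, among 13748 protein-coding genes. The libraries share their groups and treatments, so r is a description. LTBP1 was followed by EXOC6B (0.978), DPYD (0.978) and TTC28 (0.975), which span 650, 917 and 702 kb. SMAD3 was followed by EXT1 (0.993), FAM120A (0.992) and LOXL2 (0.991), and TGFBR2 by ATRN (0.990), ENDOD1 (0.986) and PODXL (0.982). For TGFB2 they were EIF2S3 (0.977), ERCC6L (0.956) and TOB2 (0.955), and for INHBA they were FANCA (0.940), DUSP10 (0.930) and PRRG4 (0.925). The highest r was 0.795 for SKIL (N4BP2), 0.778 for SMAD7 (CCND2) and 0.708 for TGFBR1 (RAB41). AGPAT1 followed TGFB1 most closely (0.935).

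Beyond the 9 genes, 53 other genes of the pathway were described in 4 lists, of which 48 were tested for MDA-MB-231 and 52 for MDA-MB-436. In the libraries labelled MDM2 shRNA 9 were higher and 14 lower in MDA-MB-231, and 12 higher and 16 lower in MDA-MB-436, where 22.7% and 30.4% of all genes tested were called. With the PROTAC 10 were higher and 11 lower in MDA-MB-231, and 11 higher and 17 lower in MDA-MB-436, beside 22.6% and 32.4% of all genes. The median log2 change of all tested list genes lay between -0.010 and 0.051 in the 4 comparisons, and that of all genes between -0.0060 and 0.043.

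Among ligands, antagonists and activators, 3 of 11 rose and 2 fell in the MDA-MB-231 libraries labelled MDM2 shRNA and 4 rose and 2 fell with the PROTAC, while in MDA-MB-436 1 of 14 rose and 4 fell with each treatment (all genes, 11.1% higher and 11.5 to 11.6% lower in MDA-MB-231, and 16 to 17.3% and 14.4 to 15.1% in MDA-MB-436). FSTL3, a follistatin-like antagonist of activin, rose in all 4 comparisons, by 0.55 and 0.56 in MDA-MB-231 and by 0.35 and 0.66 in MDA-MB-436 on the log2 scale, in the libraries labelled MDM2 shRNA and under the PROTAC. GDF11, a growth factor of the same family, rose in MDA-MB-231 (0.62 ± 0.07 and 0.80 ± 0.071) and fell in MDA-MB-436 (-0.48 ± 0.12 and -0.46 ± 0.12), and the difference between lines was not tested. LTBP2, a relative of LTBP1, fell to 10.4 ± 0.694 CPM in the MDA-MB-231 libraries labelled MDM2 shRNA, against 22.6 ± 0.673 CPM in their controls, and was called in 3 of the 4 comparisons. INHBB, the other activin subunit, fell in MDA-MB-231 (-0.60 ± 0.053 and -0.54 ± 0.053) and was under 1 CPM in MDA-MB-436.

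Of the receptors and co-receptors, none of 6 rose in any comparison, while 2, 1, 2 and 2 fell in the MDA-MB-231 libraries labelled MDM2 shRNA, the MDA-MB-231 PROTAC libraries and the same 2 groups of MDA-MB-436. Of all genes, 11.1 to 17.3% were higher and 11.5 to 15.1% lower, and with 6 genes the counts are a description only. ENG (endoglin), a co-receptor, fell in all 4, in MDA-MB-436 to 63.7 ± 1.43 CPM under the MDM2 shRNA label against 119 ± 1.85 CPM in their controls. TGFBR3 (betaglycan), the co-receptor that presents TGF-beta 2, fell in MDA-MB-436 (-0.95 ± 0.17 and -0.94 ± 0.17), with changes of 0.19 ± 0.17 and 0.038 ± 0.17 in MDA-MB-231 that were not called. ACVR1, a type I receptor, fell in the MDA-MB-231 libraries labelled MDM2 shRNA (-0.30 ± 0.087).

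Among SMADs and their regulators, 1 of 17 rose and 5 fell in the MDA-MB-231 libraries labelled MDM2 shRNA, 1 rose and 4 fell with the PROTAC there, and 4 and 3 rose and 6 fell in MDA-MB-436, beside 11.1% higher and 11.5 to 11.6% lower of all genes in MDA-MB-231 and 16 to 17.3% and 14.4 to 15.1% in MDA-MB-436. SMURF2, a ubiquitin ligase for SMADs and receptors, fell to 66.2 ± 1.51 CPM in the MDA-MB-436 libraries labelled MDM2 shRNA, against 138 ± 3.26 CPM in their controls (-1.05 ± 0.07, adjusted p = 1.02e-06), and also fell in the other 3 comparisons. BAMBI, a decoy receptor that dampens the signal, rose in all 4, from 0.54 to 1.02 on the log2 scale. SKI, the corepressor related to SKIL, fell with both treatments in MDA-MB-436 (-0.66 ± 0.073 and -0.71 ± 0.073) and slightly with the PROTAC in MDA-MB-231 (-0.14 ± 0.042). ZFYVE9, the SMAD anchor at endosomes, fell in 3 of the 4.

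The list of TGF-beta targets moved both ways, with 5 of 14 rising in each MDA-MB-231 comparison and 5 and 4 falling, and 7 of 15 rising in each MDA-MB-436 comparison and 4 and 5 falling. Of all genes, 11.1% were higher and 11.5 to 11.6% lower in MDA-MB-231, and 16 to 17.3% and 14.4 to 15.1% in MDA-MB-436. IL11, a cytokine that tumours make in response to TGF-beta, rose to 365 ± 9.17 CPM in the MDA-MB-231 libraries labelled MDM2 shRNA, against 140.0 ± 6.30 CPM in their controls (1.38 ± 0.043, adjusted p = 1.34e-08), and by 1.80 in MDA-MB-436. NEDD9, a focal adhesion scaffold, rose by 1.84 and 1.86 in MDA-MB-231 and by 1.88 and 1.66 in MDA-MB-436. JUNB, an AP-1 subunit, rose in all 4 comparisons as well. Exons of GDF11, LTBP2, ENG, SMURF2, ZFYVE9, NEDD9 and JUNB, like those of TGFB1, LTBP1 and SMAD3, overlap exons of an opposite-strand gene. No source here gives the strand setting of the counts, so reads of the shared bases cannot be told apart from those of the partners. The SMAD3 partner AC087482.1 shares 182 of 9113 exonic bases and had 0 to 0.0304 CPM. The TGFB1 partner HNRNPUL1 shares 215 of 3238 and had 304 to 707 CPM, and the LTBP1 partner has no level here.

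**Figure D5:**
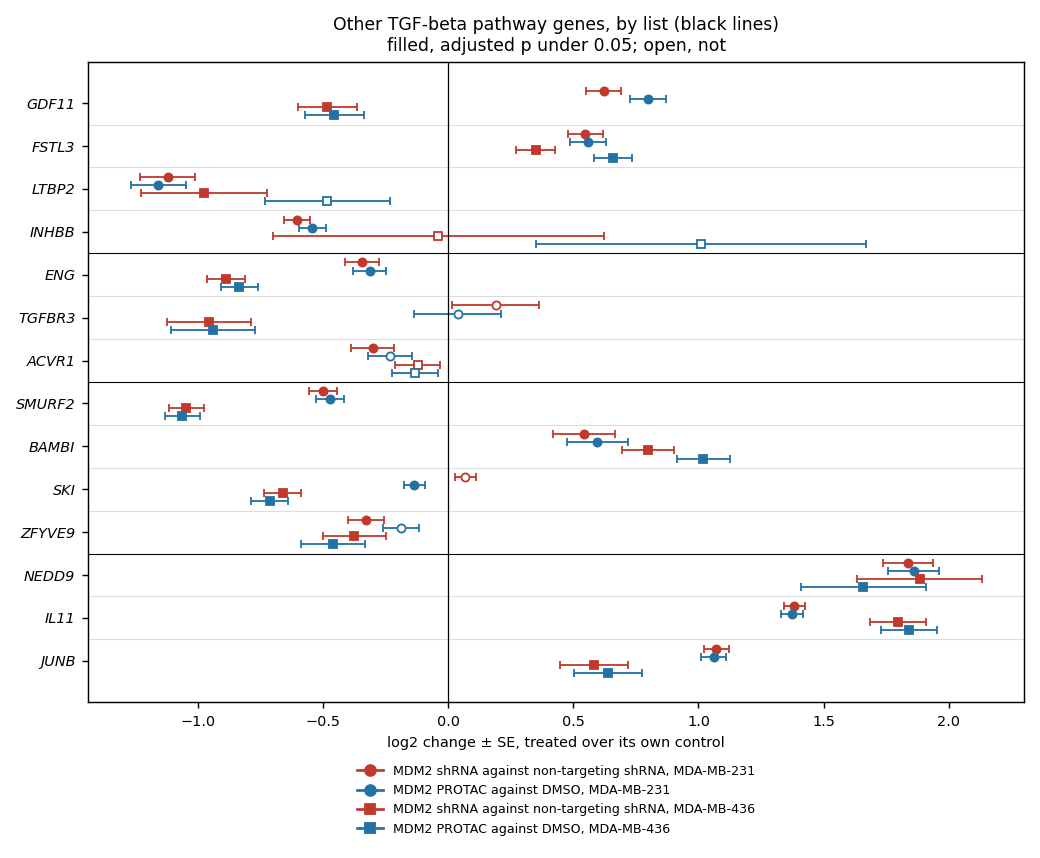
Log2 change ± SE over the gene's own control (horizontal axis) for pathway genes named by rule, in 4 lists separated by black lines: ligands, antagonists and activators; receptors and co-receptors; SMADs and their regulators; targets. Symbols and colours are as for the 9 genes (circles MDA-MB-231, squares MDA-MB-436, red libraries labelled MDM2 shRNA, blue PROTAC); ENG and SMURF2 have 4 filled symbols below 0, and IL11, NEDD9, JUNB, BAMBI and FSTL3 have 4 above it.

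Markers of other cell types were checked as lists. Of the leukocyte markers, CD3E was at 0 in MDA-MB-231 and 0.00407 CPM in MDA-MB-436 and PTPRC was at 4.08 and 0.0317 CPM, while CD68 stood at 37.4 and 20.3 CPM. The summed level of 5 leukocyte markers was 38.2 to 45.99 CPM in the MDA-MB-231 libraries labelled MDM2 shRNA and 35.4 to 40.99 CPM in their controls, and 23.8 to 30.7 and 24.5 to 31.1 CPM in MDA-MB-436. With the PROTAC it was 41.2 to 48.6 CPM, against 39.1 to 50.2 CPM with DMSO, in MDA-MB-231, and 28.5 to 39.4 against 27.2 to 27.6 CPM in MDA-MB-436, where the groups did not overlap. For 4 endothelial markers, with CDH5 and VWF under 1 CPM, the sums were 9.13 to 11.3 and 8.63 to 9.99 CPM in MDA-MB-231 and 3.89 to 4.39 and 6.14 to 6.99 CPM in MDA-MB-436, and for the PROTAC and DMSO 8.15 to 11.2 and 8.51 to 10.3 CPM in MDA-MB-231 and 2.39 to 5.16 and 6.09 to 9.23 CPM in MDA-MB-436. The endothelial sums did not overlap between treatment and control in MDA-MB-436. The summed level of 5 fibroblast markers was 7.31 to 8.87 CPM in the MDA-MB-231 libraries labelled MDM2 shRNA and 4.32 to 5.07 CPM with the non-targeting shRNA, 7.61 to 9.87 CPM with the PROTAC and 4.42 to 5.28 CPM with DMSO. In MDA-MB-436 the sums were 3.34 to 4.32 CPM under the MDM2 shRNA label and 0.619 to 1.27 CPM with the non-targeting shRNA, 2.70 to 4.47 CPM with the PROTAC and 0.867 to 2.26 CPM with DMSO. Their defining member DCN was at 0 in all libraries, and PDGFRB made up most of the sum. Summed levels of 4 mesenchymal markers, VIM among them, were 2898 to 3166 CPM in the MDA-MB-231 libraries labelled MDM2 shRNA and 4773 to 6332 CPM with the non-targeting shRNA, and 2835 to 3139 CPM with the PROTAC and 4769.8 to 4850.4 CPM with DMSO. In MDA-MB-436 the mesenchymal sums were 830 to 848 CPM under the MDM2 shRNA label and 971 to 1116 CPM with the non-targeting shRNA. They were 724 to 878 CPM with the PROTAC there and 1133 to 1186 CPM with DMSO. VIM made up most of the mesenchymal sums, at 3920 CPM in MDA-MB-231 and 802 CPM in MDA-MB-436. The part of these shifts in the results for the 9 genes was not tested.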

How the data were processed

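The deposited values are whole-number counts per Ensembl gene, 1 table per library with 60675 genes, per the file headers. Tools listed per the submitters' processing notes are HISAT2, edgeR, StringTie and cutadapt 2.4, and the build is GRCh38; the role of each tool, the strand setting and the counting step are not given in the sources used here. Per the labels' protocols, RNA was extracted with TRIzol and libraries were made with a NEBNext Ultra II kit. In each library, genes with exactly 4 counts were 1.2 to 1.64 times as many as those at neighbouring counts.

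The 12 libraries of a line were fitted together with edgeR 4.0.16 (R 4.3.3, filterByExpr, TMM, quasi-likelihood test, 8 residual degrees of freedom, Benjamini-Hochberg), testing 20675 genes for MDA-MB-231 and 22663 for MDA-MB-436; line differences used all 24 libraries (24719 genes). Alternatives were DESeq2 1.42.0, limma 3.58.1 voom, RLE or no scaling, no filter, at least 1 CPM in 3 libraries, counts divided by 4, a replicate block, the 6 libraries alone, 1 fit of all 24, each library left out, and TGFB2-OT1 counts added. Coordinates follow GENCODE 29, promoters RefSeq GRCh38.p14. The fit was tested on simulated data. Members, lists and tests were chosen with earlier results of these data known. Named genes are the 9, MDM2, from each of 4 pathway lists up to 4 genes called in the most treatment comparisons (at least 1, ties by the larger mean absolute log2 change), the 3 genes nearest each of the 9 by r, and markers by list; 2 of the genes so chosen are not reported here.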

Additional observations from a re-analysis of the deposited data

Results flagged for a closer look

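The response to treatment differed between the lines for 9 results, each by the test of the difference itself in one edgeR model of all 24 libraries. In the libraries labelled MDM2 shRNA, the log2 effect in MDA-MB-436 minus that in MDA-MB-231 was -1.03 for TGFB2, -2.58 for TGFBR1, 1.51 for LTBP1 and -0.50 for SMAD3. With the PROTAC it was -1.56 for TGFB2, -0.22 for TGFBR2, 1.02 for LTBP1, -0.46 for SMAD3 and 0.83 for INHBA. LTBP1 fell in both lines and by less in MDA-MB-436, SMAD3 fell in both and by more in MDA-MB-436, and TGFB2 rose in MDA-MB-231 and fell in MDA-MB-436. With TGFB2-OT1 counts added, the differences for TGFB2 kept their sign at -0.54, no longer called, and -0.78, still called. The TGFBR1 value sets a fall in MDA-MB-436 beside a rise in MDA-MB-231 that was not called. In MDA-MB-436 the libraries labelled MDM2 shRNA had 11.3 ± 2.16 CPM, against 32.98 ± 6.85 CPM in their controls. In MDA-MB-231 they had 76.3 ± 11.4 CPM, against 37.2 ± 8.71 CPM, without overlap (log2 change 1.04 ± 0.37, edgeR adjusted p = 0.0658). The DMSO libraries of MDA-MB-231 had 76.7 ± 5.38 CPM.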

How the results depend on the processing

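Changes of LTBP1, SMAD3 and TGFBR2 in each of the 4 comparisons, and those of INHBA in MDA-MB-436, kept their direction and their call under all 17 alternatives run, with log2 changes of LTBP1 from -2.34 to -2.19 in the MDA-MB-231 libraries labelled MDM2 shRNA and from -0.86 to -0.58 in those of MDA-MB-436. Replicate numbers did not pair the samples: deviations of same-numbered libraries correlated by between -0.029 and 0.038. With the replicate block, called genes numbered 4274 and 4302 in MDA-MB-231 and 6530 and 6877 in MDA-MB-436 for the label MDM2 shRNA and the PROTAC in turn. Between the lines, 4 of the 9 genes rather than 7 then differed in the DMSO libraries. TGFBR1 at -0.71, SKIL at 1.02 and INHBA at 0.49 lost their calls, as TGFB2 at -0.27 did in the non-targeting libraries. The block was coded within each line with replicate 1 as the base, so its line difference compares the lines at the fitted level of replicate 1. That is not the same quantity as the difference between group means. Leaving out 1 library at a time gave 3612 to 4073 and 3716 to 3975 called genes in MDA-MB-231 and 5594 to 5633 and 5962 to 7809 in MDA-MB-436, and of the 9 genes 4 to 6, 4, 6 and 5 to 6. The line differences were then called for 4 and for 4 to 5 of the 9, and the control differences for 5 to 6 and 5 to 7. Without scaling between libraries the median of all genes shifted by 0.10, 0.083, 0.18 and 0.17, and of the called genes 68.0, 65.6, 72.8 and 70.9% were higher, in place of 48.8, 49.1, 52.5 and 53.4%. Signs turned for changes that were not called. SKIL with the PROTAC in MDA-MB-436 ran from -0.76 to 0.082 as libraries were left out, and TGFB1 from -0.091 to 0.14. SMAD7 there came to -0.0072 with limma voom and -0.071 without PROTAC replicate 3. In the MDA-MB-436 libraries labelled MDM2 shRNA, SMAD7 came to 0.15 without scaling and from -0.14 to 0.045 as libraries were left out, and TGFB1 to 0.091 without scaling. The sum of TGFB2 and TGFB2-OT1 was chosen after seeing the data. INHBA and SMAD7 had the lowest counts in a library among the 9, at 251 and 268.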

Other observations

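The levels of the 9 genes moved together in part. After subtraction of each line's mean, Pearson's r of log2 CPM over the 24 libraries was 0.955 between TGFBR2 and SMAD3, 0.830 between TGFBR2 and LTBP1 and 0.720 between LTBP1 and SMAD3. INHBA ran against them at -0.903 with TGFBR2, -0.896 with SMAD3 and, more weakly, -0.656 with LTBP1. TGFB1 was nearly unrelated to SMAD3 (-0.032). These values describe libraries that share treatments and carry no test.

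The summed level of 5 epithelial markers (EPCAM, CDH1, KRT8, KRT18 and KRT19) was 509 to 572 CPM in the MDA-MB-436 libraries labelled MDM2 shRNA and 964 to 1142 CPM with the non-targeting shRNA, and 409 to 549 CPM with the PROTAC and 827 to 886 CPM with DMSO. In MDA-MB-231 it was 901 to 954 CPM under the MDM2 shRNA label and 935 to 992 CPM with the non-targeting shRNA, which overlapped, and no test was run on these sums. KRT19 stood at 364 CPM in MDA-MB-231 and 0.389 CPM in MDA-MB-436, and CDH2 at 0.355 and 130 CPM.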
